A study of Homo sapiens with 3 samples.

Results

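The TRIM (tripartite motif) genes are described here in HT-29 cells, an established human colon adenocarcinoma line of epithelial origin, after exposure to interferon-γ (IFN-γ). Every measured gene with a symbol of TRIM plus a number was taken, and each was read from its brightest probe set, which gave 33 genes of 11963 named on the array and analysed here. All 3 Affymetrix arrays came from HT-29 cultures that received 200 U/ml IFN-γ for 24 h, described by the series as biological replicates. Because untreated cultures were not analysed here, every value is a level in treated cells and says nothing about how far a gene responded.

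TRIM proteins carry a RING finger, B-box zinc fingers and a coiled coil at the N terminus, followed by a variable C-terminal domain that recognises the target. The RING finger lets most of them act as E3 ligases, which pass ubiquitin from an E2 enzyme to a substrate. Many are known as interferon-induced factors of antiviral defence, and others act in chromatin silencing, the cytoskeleton or protein quality control. Not all members carry the RING finger: TRIM14, TRIM16, TRIM29, TRIM44 and TRIM66 are known to lack it.

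The probe set names had to be checked before any gene could be named, because the values and the names in the deposited table were out of register. Across 4310 genes with several probe sets, a pair of probe sets per gene gave a correlation of log2 signals of r = 0.19 as deposited and r = 0.60 in the order used here, across genes, which are not independent replicates. Moving that order by 1 row either way brought r back to 0.17. For the 13 TRIM genes with several probe sets, the same pair measure gave 0.27 as deposited, 0.45 in the order used, and 0.27 and 0.21 with that order moved by 1 row either way. With each of their 43 probe sets set against the mean of the other probe sets of its gene, which share cultures and arrays, r was 0.03 as deposited, 0.50 in the order used, and 0.29 and -0.08 after the same moves. The contrast between orders was smaller for the TRIM pairs than for all genes. Of the 63 TRIM probe sets, 55 moved by 487 rows, 5 by 488 rows and 3 belonged to the block of low-numbered probe sets. The order was inferred from agreement between probe sets of a gene, TRIM genes included, so these r values are no independent check of it. Every value below depends on this inferred order.

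**Figure D1:**
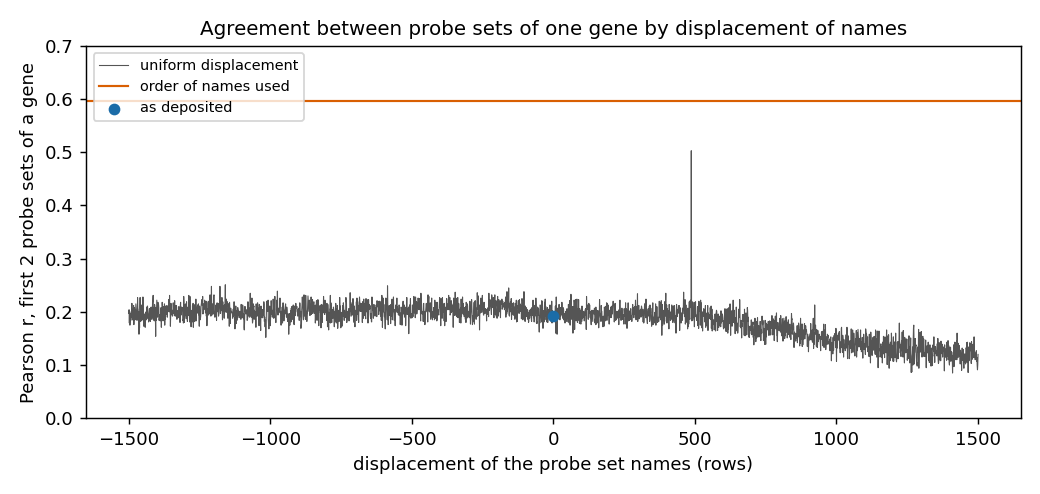
Pearson correlation of log2 signal between a pair of probe sets per gene, the first 2 in the table (y axis) against the number of rows by which all names were displaced (x axis). Among the 3001 displacements tried, the peak of 0.50 lay at 487 rows and the highest value elsewhere was 0.25, while the order used (horizontal line) gave 0.60 and the deposited order (point) gave 0.19.

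Signals are deposited on a linear scale, with medians of 137, 144 and 141 on the arrays of replicates 1, 2 and 3. A gene was called detected when its log2 signal lay over a background limit by limma's one-sided test, with an adjusted p under 0.05 over all 11963 genes. Per array, this limit was set at the 95th percentile of the signals of 84 genes chosen as confined to other tissues. It came to 173, 159 and 154 in replicates 1, 2 and 3. Of these 84 genes, DRD2 was itself detected at 267, 314 and 249 (limma adjusted p = 0.00541). ACRV1 and CELA3A also lay above the limit on all 3 arrays but were not detected. Epithelial markers were detected for 14 of 15 genes, with CDH17 as the exception. By limma, 0 of 9 lymphoid and 0 of 10 stromal or endothelial markers were detected, 0 of either had an unadjusted p under 0.05, and DCN alone of them stood above the limit on all 3 arrays. LYZ, a lysozyme that epithelia can also make, was the single myeloid marker of 8 that was detected. Signals of different probe sets depend on their own hybridisation, so their order is not an order of RNA amounts. This order was used to choose a gene's brightest probe set and the genes named from the partner lists below.

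Of the 33 TRIM genes, 24 were detected (72.7%), against 46.0% of all genes. Fewer cells expressing a gene and less RNA per cell cannot be told apart in these bulk cultures. Their median height over the limit was 1.49 log2 units, beside 0.25 over all genes. TRIM genes had 1.91 probe sets each on average, compared with 1.59 for all genes and 1.39 for the background genes. A gene's value was the brightest of these. With each gene taken instead as the median of its probe sets, background genes included, 23 TRIM genes were detected, against 43.1% of all genes. A count without a test, above the limit on all 3 arrays, gave 26 TRIM genes, against 48.7% of all genes.

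**Figure D2:**
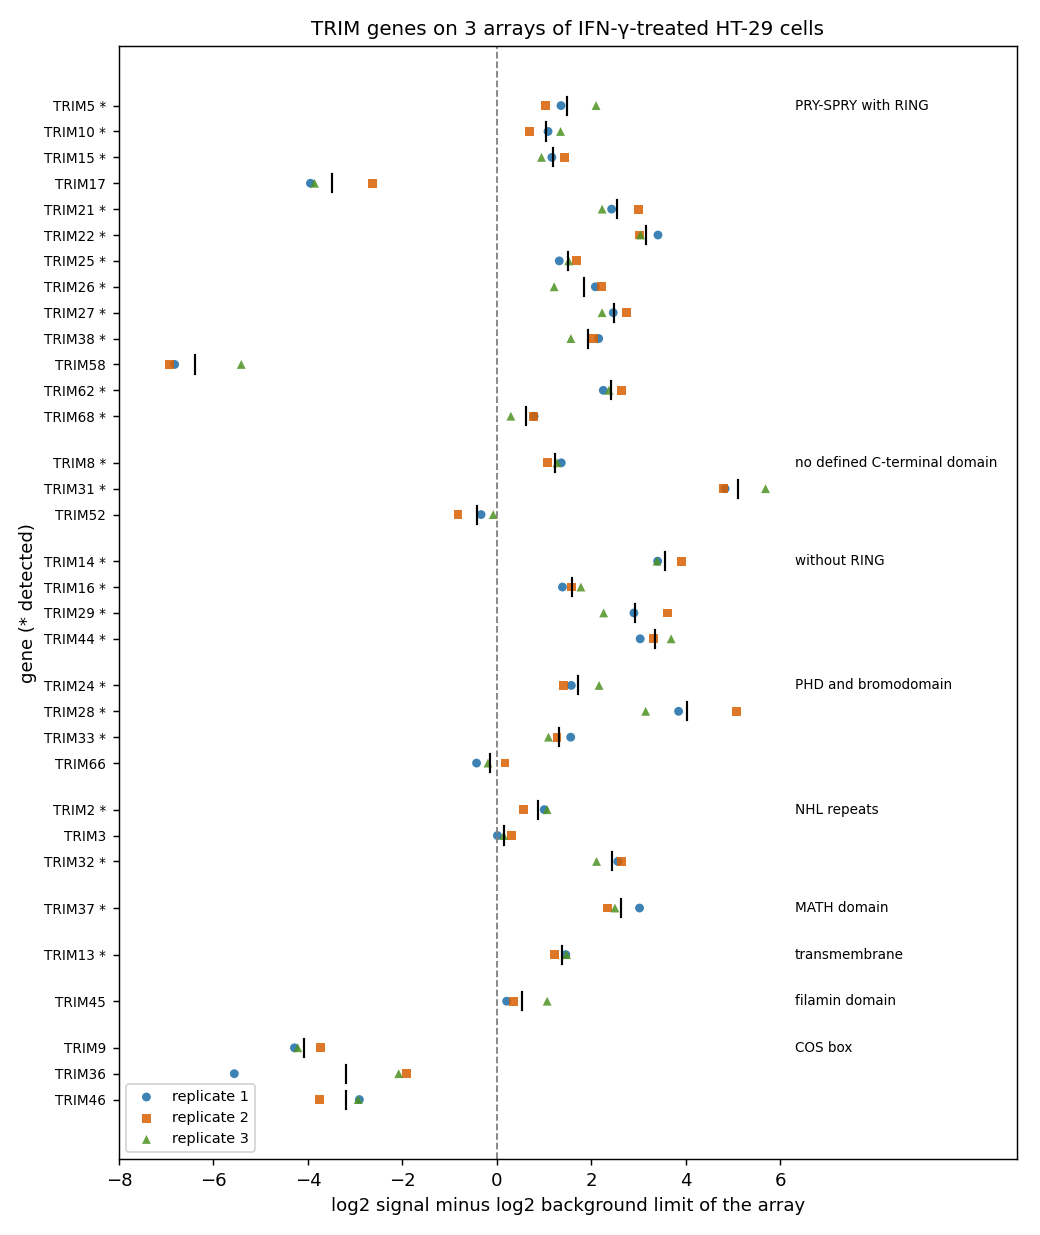
Log2 signal minus the log2 background limit of the array (x axis) for each of the 33 TRIM genes (y axis), grouped by C-terminal domain, with 1 marker per replicate and a vertical bar at the mean of 3 arrays. Genes with an asterisk were detected; TRIM17, TRIM58, TRIM36, TRIM46, TRIM9 and TRIM52 lie under the limit (dashed line) on all arrays.

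Promoter sequences are shown for 4 members with known roles in antiviral defence or its regulation, because the cultures were given an interferon and these promoters carry the letters of the interferon-stimulated response element (ISRE), which factors of the IRF family bind. RefSeq windows (GRCh38.p14), from 250 bases before to 50 after a gene's start, matched 25 of the 33 genes. The ISRE was searched as GAAANNGAAA on both strands. The stretches run 5′ to 3′ on the strand of the gene, with matches in capitals, and the TTTC form is the same motif on the other strand.
TRIM21, chr11:4393663-4393692, minus strand: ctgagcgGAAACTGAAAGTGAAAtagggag
TRIM14, chr9:98119223-98119282, minus strand: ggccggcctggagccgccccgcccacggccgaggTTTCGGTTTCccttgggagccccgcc
TRIM5, chr11:5685075-5685134, minus strand: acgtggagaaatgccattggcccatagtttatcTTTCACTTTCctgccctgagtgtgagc
TRIM26, chr6:30213566-30213625, minus strand: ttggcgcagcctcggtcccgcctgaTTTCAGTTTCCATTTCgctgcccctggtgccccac

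TRIM21 and TRIM26 each held 2 overlapping matches, and the TRIM21 matches began at base 18 of the transcript. The TRIM14 and TRIM5 matches ended 16 and 17 bases before the start. These positions count base 251 of a window as the start. Among 11785 genes with 1 window, the start lay at that base for 88.2%. TRIM2, TRIM16 and TRIM44 also held the motif, so 7 of 25 TRIM genes with a window did (28.0%), compared with 4.38% of 27305 genes with a window, noncoding genes included. The 7 genes were among 17 detected TRIM genes with a window, and 8 undetected ones had 0. Over all genes on the array with a window, the motif was held by 4.32% of 4671 detected and 3.95% of 4892 undetected genes, and 0 of 8 does not stand apart from such a share. Genes can have several windows, each match is a description of letters, and binding was not measured.

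The largest class, which pairs a RING finger with a C-terminal PRY-SPRY domain that recognises viral or cellular proteins, was detected for 11 of 13 genes. TRIM21, a cytosolic antibody receptor that sends antibody-coated viruses to the proteasome, had signals of 927, 1266 and 723 in replicates 1, 2 and 3. TRIM22, an interferon-induced antiviral factor, had 1831, 1280 and 1269. TRIM5, which binds the capsids of incoming retroviruses, had 442, 322 and 661. All 9 signals of these genes stood above the limit of their array. The mean heights were 2.55 ± 0.19 log2 units for TRIM21, 3.15 ± 0.16 for TRIM22 and 1.49 ± 0.23 for TRIM5 (limma's moderated SE, n = 3). Their limma adjusted p were 1.3e-06, 1.2e-07 and 2.1e-04. A moderated SE is drawn towards a variance trend over all genes, so it can differ from the spread of a gene's own arrays. TRIM5 and TRIM22 were each read from a single _s_at probe set, a suffix for designs that match several transcripts.

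TRIM25, TRIM38, TRIM27 and TRIM26 of the same class were also detected. TRIM25, the ligase that activates the RNA sensor RIG-I, had signals of 430, 509 and 443, a spread of 1.18-fold between the highest and lowest array (limma adjusted p = 3.3e-05). TRIM38, a brake on Toll-like receptor signalling, had 767, 652 and 457 on its brightest probe set (adjusted p = 7.6e-06 by limma). Its other 2 probe sets also lay above the limit on every array, at means of 298 and 431. TRIM27, which acts in transcription and in endosomal sorting, had 950, 1066 and 722 (limma adjusted p = 7.7e-07), and all 3 of its probe sets were lowest in replicate 3. TRIM26, which lies in the MHC region and has been linked to interferon regulation, had 730, 736 and 357, so replicate 3 read less than the other arrays while staying over its limit of 154.

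The remaining detected members of this class were TRIM62, TRIM15, TRIM10 and TRIM68. TRIM62 had 821, 984 and 798 on a low-numbered probe set, and its other probe set was above the limit on 1 array only, with a mean of 129. TRIM15 had 386, 427 and 297, with 2 of its 3 probe sets clearing the limit on all arrays. TRIM10, known from red cell development, had 365, 257 and 393 on 1 probe set, while its other 3 probe sets stayed below the limit on every array. These genes therefore rest on part of their probe sets, and with the median over probe sets TRIM10 lay under the limit at -0.62 log2 units. TRIM10 also did not pass with the 99th percentile as the limit (limma adjusted p = 0.101). TRIM68, a coactivator of the androgen receptor, had 297, 272 and 189 and passed narrowly (limma adjusted p = 0.0217). TRIM68 did not pass without replicate 1 (adjusted p = 0.155) or without replicate 2 (adjusted p = 0.0796), and lay at the limit when this was the 99th percentile. Here and below, an adjusted p with a replicate left out leans on the variance trend over all genes.

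Both undetected genes of the class lay below the limit on all arrays. TRIM17, described in testis and neurons, had signals of 11.2, 25.4 and 10.6. TRIM58, an erythroid ligase, had 1.53, 1.29 and 3.63. Such signals have no usable order.

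TRIM31 and TRIM8, which end without a defined C-terminal domain, were detected, and TRIM52 was not. TRIM31, a ligase for the mitochondrial adaptor MAVS that is known from the gastrointestinal tract, had 4901, 4394 and 7939 on its brightest probe set. It lay 5.10 ± 0.22 log2 units over the limit (moderated SE, n = 3, limma adjusted p = 4.5e-08). Its other probe sets had means of 4449 ± 753 and 4465 ± 549 (SD, n = 3), and all 3 probe sets were lowest in replicate 2. All of them carry the _s_at suffix, so TRIM31 has no value without such designs. TRIM8, which acts in TNF and interleukin-1 signalling, had 443, 333 and 373 (limma adjusted p = 1.6e-04). TRIM52, which ends after the B-box, had 137, 89.5 and 146, under the limit on every array.

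All 4 members known to lack a RING finger, set apart here from the PHD and bromodomain class, were detected. TRIM14, an adaptor in antiviral signalling at mitochondria, had 1823, 2381 and 1618 on its brightest probe set. TRIM14 lay 3.57 ± 0.17 log2 units over the limit (moderated SE, n = 3, limma adjusted p = 8.2e-08). Another 2 of its 4 probe sets lay above the limit on all arrays, but the single probe set without a suffix did not, at 165, 130 and 132, and TRIM14 was not detected from it (adjusted p = 0.862). TRIM44, which carries a zinc finger of the kind found in ubiquitin proteases, had 1410, 1569 and 1988, with a mean of 1100 on its other probe set. TRIM16, which binds galectins at damaged endosomes, had 451, 473 and 529 (limma adjusted p = 2.3e-05). TRIM29, known from stratified epithelia, had 1286, 1927 and 739 on 1 of 3 probe sets, whereas the others had means of 92.5 and 231.

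The class with PHD finger and bromodomain, which reads histone tails, was detected for 3 of 4 genes. TRIM28, the scaffold that KRAB zinc finger proteins use to silence transposable elements, had 2477, 5333 and 1368. Replicate 2 read 3.90-fold more than replicate 3, the widest gap among the detected members, and all signals lay above the limit. TRIM28 lay 4.02 ± 0.31 log2 units over it (moderated SE, n = 3, limma adjusted p = 2.0e-06). The SD of its own log2 signals was 0.98. TRIM24, a coregulator of nuclear receptors, had 514, 418 and 691 on a probe set whose _x_at suffix stands for a cross-hybridising design. Its only probe set without a suffix had 2.36, 4.93 and 5.80, so TRIM24 lay -5.07 log2 units relative to the limit when suffixed probe sets were left out. TRIM33, a partner of SMAD proteins, had 509, 383 and 329 (limma adjusted p = 1.3e-04), with 3 of its 4 probe sets clearing the limit on all arrays. TRIM66, described in germ cells, was not detected at 128, 178 and 135, above the limit in replicate 2 alone.

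The NHL-repeat class, which includes RNA-binding and cytoskeletal ligases, was detected for 2 of 3 genes. TRIM32, whose mutation causes a muscular dystrophy, had 1016, 989 and 666 (limma adjusted p = 9.9e-07). TRIM2, which ubiquitinates neurofilament, had 345, 234 and 322 on the brightest of 5 probe sets, of which 2 cleared the limit on all arrays (limma adjusted p = 0.00289). It fell to the other side of the limit, at -1.57 log2 units, with the median over its probe sets and at -3.80 without suffixed probe sets. With the 99th percentile as the limit, TRIM2 stayed above it by 0.25 log2 units but did not pass (limma adjusted p = 0.308). TRIM3, known from brain, was not detected at 174, 197 and 171 (limma adjusted p = 0.498), although each signal was just above the limit of its array.

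The single members of smaller classes divided. TRIM37, a peroxisomal and centrosomal ligase with a MATH domain, had 1397, 803 and 872 (limma adjusted p = 8.4e-07). TRIM13, anchored in the endoplasmic reticulum, had 474, 369 and 429 (limma adjusted p = 6.0e-05). TRIM45, with a filamin domain, was above the limit on all arrays at 199, 202 and 323 but was not detected (limma adjusted p = 0.058). TRIM45 passed by limma without replicate 2 (adjusted p = 0.0341) and with the 90th percentile as the limit (adjusted p = 0.00997). It also passed with the median over probe sets (adjusted p = 0.0105) and without suffixed probe sets (adjusted p = 0.0113). TRIM45 has 1 probe set, without a suffix, so its signals were unchanged there. The limit was lower, at 132, 138 and 140 with the median and 133, 134 and 142 without suffixed probe sets.

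None of the 3 genes of the COS-box class, which binds microtubules, was detected by limma. TRIM9, known from neurons, had 8.84, 11.9 and 8.31. TRIM46, which organises microtubules at the start of the axon, had 22.9, 11.7 and 20.2. TRIM36, described in sperm, had 3.66, 41.8 and 36.5. All 9 signals lay under the limit, and 0 of the 3 genes had an unadjusted p under 0.05 or stood above the limit on all arrays. Of the 2 relatives of this class named without a TRIM number, MID1 was not detected at 135, 140 and 149. MID2 had 224, 219 and 249 and passed narrowly (limma adjusted p = 0.0427), but leaving out each replicate in turn ended the call, with adjusted p from 0.0842 to 0.125. So did the median over probe sets, the 99th percentile, the floor on signals, a fit without the variance trend and leaving out suffixed probe sets.

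The other relatives without a number belong to the antiviral and inflammatory side of the family. PML, the scaffold of nuclear bodies, had 468, 683 and 131 on its brightest probe set, below the limit in replicate 3. PML passed narrowly (limma adjusted p = 0.0225), and several alternatives ended the call. Its adjusted p was 0.0924 without replicate 1, 0.342 with the 99th percentile as the limit, 0.226 with the median over probe sets, 0.346 without suffixed probe sets and 0.0728 without the variance trend, and it failed the count that asks for all 3 arrays. MEFV, the pyrin inflammasome sensor of myeloid cells, was not detected at 110, 168 and 172.

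Probe sets of a gene differed in whether they reached the limit. Among the 13 TRIM genes with several probe sets, all lay above it on every array for TRIM27, TRIM31, TRIM38 and TRIM44, and some but not all did for the other 9. In total 27 of the 43 probe sets were above. For TRIM3, TRIM10, TRIM29 and TRIM62 the brightest was the only one above on every array. A gene with 1 probe set has no such check.

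**Figure D3:**
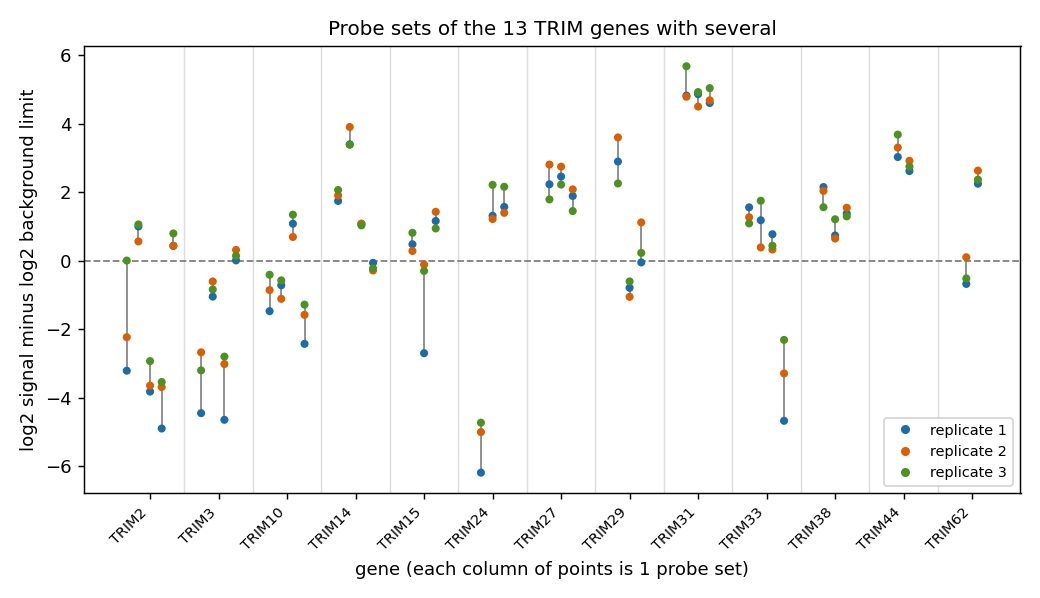
Log2 signal minus the log2 background limit (y axis) for every probe set of the 13 TRIM genes with several (x axis), with 1 point per replicate and a line over their range. The 3 probe sets of TRIM31 lie together above 4 units, whereas 1 of 3 for TRIM24 and 1 of 4 for TRIM33 lie under the limit on all arrays.

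Some TRIM genes lie side by side on the chromosomes. In the 3 runs with several measured genes, each measured gene was detected, where the share was 72.7% of all TRIM genes and 46.0% of all genes. In the RefSeq gene order, with at most 10 other protein-coding genes between them, TRIM31, TRIM40, TRIM10, TRIM15, TRIM26 and TRIM39 form a run on chromosome 6, and all 4 of its measured genes were detected. TRIM5, TRIM6, TRIM34 and TRIM22 form a run on chromosome 11, and both measured genes, TRIM5 and TRIM22, were detected, as were the nearby pair TRIM21 and TRIM68. Of the genes in these runs, TRIM10 and TRIM68 lost the call under some alternatives that kept the inferred names. TRIM26 lost it with all names displaced by 487 rows. With the names as deposited, every detected gene of these runs lost it. On chromosome 5, TRIM52 was the only measured gene of its run and was not detected, and on chromosome 1 the same held for TRIM17. Close copies can share hybridisation, which was not tested.

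The arrays differed for some members. Over the 24 detected TRIM genes the SD of log2 signal had a median of 0.32 and quartiles of 0.27 and 0.41, and its median over all detected genes was 0.29. The highest and lowest arrays differed by over 2-fold for 4 of the 24, against 15.0% of all detected genes. These were TRIM28 at 3.90-fold, TRIM29 at 2.61-fold, TRIM26 at 2.06-fold and TRIM5 at 2.05-fold. Replicate 3 was the lowest array for 13 of the 24, against 44.8% of all detected genes, and for 11 after quantile normalization, where the share of all detected genes was 40.9%. TRIM5, TRIM10, TRIM16, TRIM24, TRIM31 and TRIM44 went the other way and were highest in replicate 3. The 100 brightest probe sets held 11.5%, 12.6% and 15.5% of the signal in replicates 1, 2 and 3; the part of this in the values of replicate 3 was not tested.

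**Figure D4:**
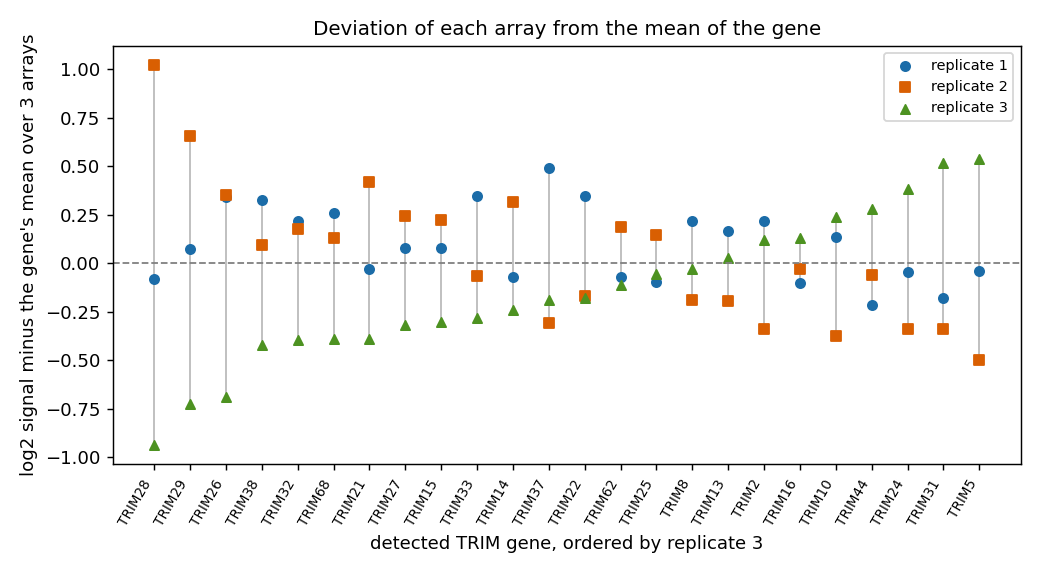
Log2 signal minus the gene's mean over the 3 arrays (y axis) for the 24 detected TRIM genes (x axis, ordered by replicate 3), with 1 marker per replicate and a line over their range. TRIM28 shows the widest range, with replicate 2 highest and replicate 3 lowest, and TRIM5 lies at the other end with replicate 3 highest.

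Enzymes that supply TRIM ligases with ubiquitin or its relatives were detected for all 10 measured genes of the 19 listed, against 46.0% of all genes. Their median height was 3.55 log2 units, beside 0.25 over all genes. UBE2N, the E2 that builds lysine-63 chains with TRIM ligases, had signals of 6252, 5449 and 6845 on an _x_at probe set. UBE2L6, the E2 for the ubiquitin-like protein ISG15, had 5058, 6103 and 5640. UBE2E1, another E2, had 2401, 3406 and 2107, and UBA1, the main ubiquitin-activating enzyme, had 3389, 4550 and 1619. All 4 genes stood above the limit on every array, with replicate 3 lowest for UBE2E1 and UBA1.

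Innate sensors, adaptors and kinases on which TRIM proteins are known to act were detected for 16 of 21 measured genes (25 listed), against 46.0% of all genes. Their median height was 1.81 log2 units, beside 0.25 over all genes. MYD88, the adaptor of Toll-like receptors, had 2761, 2731 and 1824. IRF3, the transcription factor at the end of RNA and DNA sensing, had 2372, 2795 and 1577, and the autophagy receptor SQSTM1 had 1895, 1992 and 1344. TBK1, the kinase that activates IRF3, had 1311, 986 and 1169. Of the 16 detected genes, 12 were lowest in replicate 3, against 44.8% of all detected genes, 3 of 10 detected conjugation genes and 6 of 15 detected partners of TRIM28. The kinase adaptor TAB1 was not detected at 69.2, 70.2 and 49.6, nor were the adaptor TICAM1 at 70.7, 83.9 and 51.7 and the kinase IKBKB at 124, 59.9 and 86.1.

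Heterochromatin partners of TRIM28 were detected for 15 of 18 measured genes (20 listed), against 46.0% of all genes. Their median height was 2.05 log2 units, beside 0.25 over all genes. CBX3, a heterochromatin protein, had 5984, 4850 and 10783. It was 1 of 7 among the 15 detected partners that were highest in replicate 3, against 33.8% of all detected genes. The histone deacetylase HDAC1 had 3960, 4874 and 5497, and the histone-binding proteins RBBP7 and RBBP4 had means of 4473 ± 216 and 3497 ± 178 (SD, n = 3). SETDB1, the methyltransferase that TRIM28 recruits, was above the limit on all arrays at 201, 239 and 208 but was not detected (limma adjusted p = 0.0951), although it passed with the 90th percentile as the limit (adjusted p = 0.0143). CHD3 was not detected at 272, 245 and 157 (limma adjusted p = 0.1) and passed without replicate 3 (adjusted p = 0.0167) and with the 90th percentile (adjusted p = 0.0262). MTA2, a subunit of the NuRD complex, had 88.1, 127 and 26.4, below the limit on every array.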

How the data were processed

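Total RNA of 3 IFN-γ-treated HT-29 cultures was labelled with biotin and hybridised, per the labels' protocols. The table deposited by the authors holds intensity on a linear scale, computed with MAS5 in Affymetrix Expression Console 1.1 according to the submitters' processing notes. A scaling target is not given in the sources used here; the mean without 2% of values at each end was 500.3 on every array, so the arrays share a scale. Of 22283 probe sets, 6 were empty. The platform annotation gave 19071 probe sets with 1 symbol, 1043 with several (4 of them listing a TRIM gene) and 2163 with none listed; symbols were updated through the Entrez ID, and 19059 matched the RefSeq table.

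Names were re-ordered as 15 unnamed values, 100 probe sets numbered from 200000, 493 with lower numbers, 21622 others in file order and 47 unnamed values; this order was inferred from the data. No pseudocount was added before log2. In limma 3.58.1 under R 4.3.3, an intercept-only model with a variance trend was fitted to the log2 signal minus the limit, and tested one-sided with Benjamini-Hochberg adjustment. Error in the limit does not enter the p-values. They use variances drawn towards a trend over all genes, so they do not measure the spread between these cultures alone. Without replicate 2, limma's adjusted p for TRIM31 was 2.4e-63, against 4.5e-08 with all arrays. The spread of the remaining arrays could not give such a value by itself. Adjusted p and calls with a replicate left out therefore lean on that trend and are no gauge of replicate spread. The fit was tested on simulated data.

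Of the 93 genes listed for the limit, 84 were measured. The members and lists were chosen with earlier results of these data known. All measured TRIM genes were named; of each partner list, the 4 detected genes highest over the limit and the 3 undetected genes lowest. Alternatives changed the limit, the probe set per gene, the normalization, a floor, the variance model, the test, the order of names and the arrays used. The number of arrays limits the precision.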

Additional observations from a re-analysis of the deposited data

How the results depend on the processing

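The count of 24 detected TRIM genes ranged from 21 with the 99th percentile as the limit to 26 without a test over the alternatives that kept all 33 genes and the inferred names, and from 23 to 24 when 1 replicate was left out. The share of all genes moved with it: 37.6% at the 99th percentile, 49.3% at the 90th (25 TRIM genes), 43.1% with the median (23) and 48.7% without a test, and 43.3% to 46.2% with 1 replicate left out. Without suffixed probe sets it was 15 of 26 genes, with 3315 of 8369 over all (39.6%), 9 of 13 sensing and 8 of 10 silencing genes; fewer genes were measured there. As deposited it was 3, with 775 over all (6.48%), and 1, 3 and 3 conjugation, sensing and silencing genes. Of the 24 detected genes, 19 kept the call under every alternative with inferred names in which they were measured. Only 12 of these were detected under all 11 such alternatives. The other 7 have suffixed probe sets alone, so they were not measured when those were left out. With the 99th percentile TRIM68 lay at -0.00324 and TRIM2 and TRIM10 did not pass at 0.25 and 0.42; TRIM2 and TRIM10 lay at -1.57 and -0.62 with the median, and TRIM2 and TRIM24 at -3.80 and -5.07 without suffixed probe sets. MID2 lay at -0.11 and -0.64 with the 99th percentile and without suffixed probe sets. With all names displaced by 487 rows, TRIM26 lay at -1.14 and TRIM62 at -0.37. Quantile normalization, the floor and the variance model changed no call of a numbered TRIM gene. The alternatives for partner genes and relatives, and the count of genes lowest in replicate 3 after quantile normalization, were chosen after seeing the data. No paired analysis was possible because all samples form 1 group.

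With the names as deposited, where the limit is itself read from other probe sets, heights in log2 units turned below 0 for TRIM2 (-0.88), TRIM5 (-7.69), TRIM8 (-0.96), TRIM10 (-3.18), TRIM13 (-1.89), TRIM15 (-3.37), TRIM16 (-5.58), TRIM21 (-3.88), TRIM22 (-1.83), TRIM24 (-1.40), TRIM25 (-5.62), TRIM26 (-1.73), TRIM27 (-1.83), TRIM28 (-2.91), TRIM31 (-2.69), TRIM32 (-0.70), TRIM37 (-3.26), TRIM38 (-1.16), TRIM44 (-4.97), TRIM62 (-2.77) and TRIM68 (-5.64). The same held for MID2 (-0.77), UBE2E1 (-1.64), UBA1 (-4.15), UBE2N (-0.996), TBK1 (-4.47), IRF3 (-8.18), MYD88 (-2.29), RBBP4 (-4.63), RBBP7 (-0.59), HDAC1 (-2.10) and CBX3 (-0.16), while IKBKB rose to 1.34.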
